A study of Mus musculus with 92 samples.

Results

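This account follows 8 mouse genes out of the 54532 in the count tables: the MHC class II chains H2-Aa, H2-Ab1, H2-Eb1, H2-DMa and H2-DMb1, the invariant chain Cd74, the class II regulator Ciita, and Ubd. They were taken by gene name from a list selected on the fold changes between homozygous and heterozygous tissue. Those fold changes are therefore given as a description: where the number of members past a threshold is printed for them, it stands beside the share of all genes and nothing is read from it. The villus-to-crypt contrast in heterozygous mice and the comparisons between cultures were not the fold changes that made the choice, and these were tested. The heterozygous libraries of the villus-to-crypt contrast did enter those fold changes, so its tests are not fully independent of the choice.

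The study deleted Eif4g2, which encodes a translation initiation factor related to eIF4G, in the mouse intestine, and sequenced poly(A) RNA of 92 samples. Every tissue sample came from a tamoxifen-treated mouse carrying CreER, and the heterozygous controls, Eif4g2(flox/+), carry a floxed allele, CreER and the drug as well. In Rosa26(CreER) mice, whose driver is active in most cell types, crypts of 4 Eif4g2(flox/flox) and 5 Eif4g2(flox/+) animals and villi of 5 and 5 were taken on day 9. In Vil1(CreER) mice, whose driver acts in the intestinal epithelium, crypts of 3 flox/flox and 4 flox/+ animals and villi of 6 and 4 were taken at the time labelled month 3, with tamoxifen at 100 mg/kg on 4 days. The cultures were grown from small intestine in ENR medium. The first organoid set held 3 flox/flox Rosa26(CreER) lines with DMSO or with 0.5 µM 4-hydroxytamoxifen (4-OHT) for 24 hours, taken on day 6. The second organoid set held flox/flox, flox/+ and CreER-only (+/+) lines, 4 of each, all given 4-OHT and taken on day 6. Fetal intestinal spheroids were flox/flox (6 lines) or flox/+ (5 lines), each with DMSO or 4-OHT. The last set held organoids without 4-OHT, replicate 1 being +/+ and replicates 2 to 4 flox/flox, given DMSO or A-485 at 3, 5 or 10 µM and taken on day 4. A-485 inhibits the acetyltransferases p300 and CBP. Animals and lines were told apart by the library names; where a group's samples come from 1 line or litter is not given in the labels, so p-values measure the spread between these samples.

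MHC class II molecules present peptides from endosomes to CD4+ T cells. The α and β chains assemble with the invariant chain Cd74, which blocks the groove until proteases trim it and the DM heterodimer exchanges its remnant for peptide. Transcription of these genes depends on Ciita, which is recruited by a factor complex bound to the X and Y boxes of their promoters, and interferon-γ induces Ciita in cells other than dedicated antigen-presenting cells. The small intestinal epithelium, enterocytes above all, is known to carry class II. Ubd (FAT10) is a ubiquitin-like protein, induced by interferon-γ and tumour necrosis factor, that marks proteins for the proteasome; its gene lies in the extended MHC region.

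Promoter windows of RefSeq (GRCm38.p6; 250 bases before to 50 after the start of transcription) were found for 5 of the 8 genes, and none was found for H2-Ab1, Cd74 and Ciita. The stretches that follow are printed 5′ to 3′ because they show the spacing of the X and Y letters in a class II promoter next to the Ubd promoter. Capitals mark matches on the printed strand to ACNGATG, part of the X box, and to ATTGG, the core of the Y box (a reversed CCAAT).
H2-Eb1, chr17:34305747-34305856, + strand: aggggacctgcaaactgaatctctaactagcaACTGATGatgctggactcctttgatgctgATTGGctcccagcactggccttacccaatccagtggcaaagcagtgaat
H2-Aa, chr17:34287834-34287943, - strand: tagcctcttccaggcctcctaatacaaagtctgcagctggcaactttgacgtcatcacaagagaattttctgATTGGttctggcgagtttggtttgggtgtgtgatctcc
Ubd, chr17:37193742-37193851, + strand: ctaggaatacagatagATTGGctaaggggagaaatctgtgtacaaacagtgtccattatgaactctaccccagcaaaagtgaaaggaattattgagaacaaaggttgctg
The H2-Eb1 stretch held ACNGATG 88 bases and ATTGG 59 bases before the start, with 22 bases between them. H2-DMb1, not printed because its RefSeq start lies 119 bases inside the gene as the count tables place it, held the same pair with 23 bases between. Of the 32851 windows searched on both strands, 0.262% held ACNGATG followed by ATTGG 15 to 45 bases on. ACNGATG alone was in 9.85% and ATTGG alone in 37.4%. The close relatives H2-DMb2 (23 bases between) and H2-Eb2 (22 bases between) also held the pair, and the other relatives looked at, H2-Oa and H2-Ob, did not. H2-Aa had ATTGG 48 bases before its start and 1 ACNGATG match in its window, counting both strands, but no pair at that spacing. Ubd had ATTGG 222 and 134 bases before its start, 0 ACNGATG matches and no pair. X boxes that depart from these letters were not searched for, so a missing pair does not show that a promoter lacks one. The core of an interferon-stimulated response element, GAAA and again GAAA after 2 free bases (3.44% of windows), and TTCNNNGAA of a STAT site (8.3%) were in none of the 6 member windows, of which 2 belong to H2-DMa and lie 12350 and 9664 bases upstream of that gene's start in the count tables. These matches describe letters in a window and show no binding.

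In the count tables (GRCm38), the class II chains lie close together on chromosome 17: H2-DMa at 17:34135182-34139101 (+), H2-DMb1 at 17:34153072-34160230 (+), H2-Ab1 at 17:34263209-34269418 (+), H2-Aa at 17:34282744-34287827 (-) and H2-Eb1 at 17:34305877-34316199 (+). Ubd lies further along at 17:37193892-37196095 (+), Ciita is at 16:10480059-10528418 (+) and Cd74 at 18:60803848-60812646 (+). H2-DMb1 has a close copy, H2-DMb2, and Ciita and H2-Eb1 overlap antisense genes (Dexi and Gm20513). The sources used here do not give whether the counting used strand, so a small part of the counts of these 3 genes may belong to the neighbour.

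Library totals ran from 8652040 to 37611126 counts (median 23466700). The A-485 libraries were the smallest, at 8652040 to 16436145. Eif4g2 itself, the check of the labels, was at 309 to 382 CPM in heterozygous and 48.3 to 101 CPM in homozygous Rosa26(CreER) tissue (crypts 340.5 to 363 against 68.4 to 101), at 356 to 498 against 127 to 244 CPM in Vil1(CreER) tissue, and at 703 to 784 with DMSO against 144.2 to 148.2 with 4-OHT in the first organoid set. CPM here are counts scaled to a common library size (CPM after TMM scaling) within a set of libraries. Summed over the crypt list (Lgr5, Olfm4 and others), heterozygous crypts held 13940.2 to 18651 CPM and villi 39.3 to 102 in Rosa26(CreER) mice. Mitochondrial genes took 13.7 to 25.2% of the counts of homozygous Rosa26(CreER) crypts against 6.24 to 12.4% of heterozygous ones, and 30.4 to 40.3% against 17.5 to 30.8% in Vil1(CreER) crypts. In the villi they took 2.39 to 6.76% of homozygous and 2.74 to 24.5% of heterozygous Rosa26(CreER) libraries, and 6.86 to 23.5% and 9.71 to 24.3% in Vil1(CreER) mice. Their part in the results was not tested. Ddx3y, a Y-linked gene, passed 1 CPM in 10 of 10 heterozygous but in 3 of 9 homozygous Rosa26(CreER) libraries, so sex and genotype are partly mixed there. For the genes followed here, 3 animals stood apart: homozygous Rosa26(CreER) replicate 5 was the lowest homozygous library in both tissues for each of the 8 genes, and homozygous Vil1(CreER) villi replicates 2 and 3 lay far under the other 4. In the A-485 set, 3 µM replicate 4 had 0 reads of H2-DMa and H2-DMb1.

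**Figure D1:**
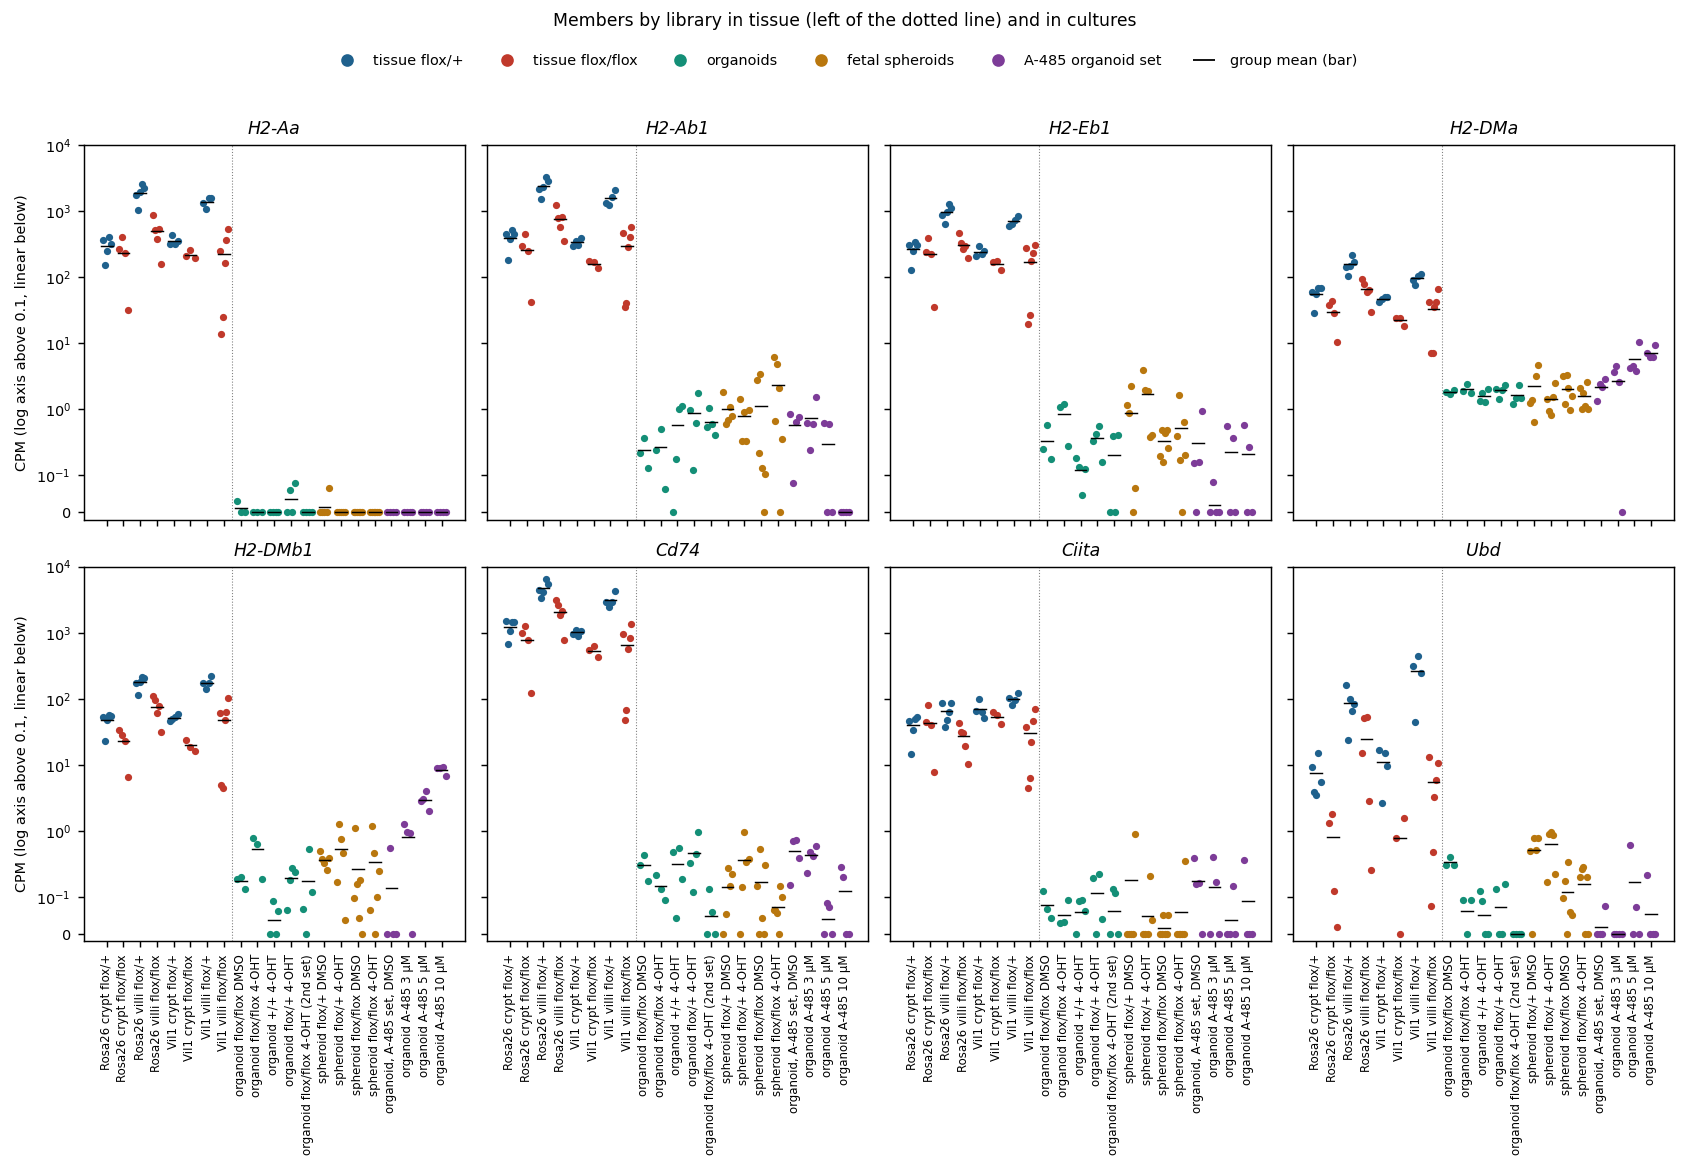
Level of each of the 8 genes in every library in CPM, by group, on an axis that is logarithmic above 0.1 and linear below it; points are libraries, dashes group means, and the dotted line separates tissue from cultures. The tissue libraries, including the 2 low homozygous villi, sit above the cultures for Cd74, whose lowest tissue value is 47.1 CPM and whose highest culture value is 0.969 CPM.

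Class II messages were abundant in the tissue and close to absent from the cultures. Summed over the 8 genes, a heterozygous library held 1199 to 2884 CPM in Rosa26(CreER) crypts, 6805 to 14182 in Rosa26(CreER) villi, 1923 to 2389 in Vil1(CreER) crypts and 5644 to 9556 in Vil1(CreER) villi. The lowest tissue library, a homozygous Vil1(CreER) villus sample, held 132 CPM. Organoids and spheroids outside the 5 and 10 µM A-485 groups held 1.71 to 9.05 CPM. Tissue and cultures were counted and scaled in separate tables, so these levels are set side by side with no test. H2-Aa, the α chain of the I-A molecule, had 0 to 2 reads in each of the 56 culture libraries. In cultures, a count of 3, the limit that a count of 0 allows, corresponds to 0.0927 to 0.347 CPM, and it covers counting error only.

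Of 44 markers of B, plasma, myeloid and T cells, 10 had no read in any of the 56 culture libraries and most others had few. Among those at 0 were Igha and Igkc (plasma cells), C1qb and C1qc (macrophages), and Cd3d, Cd4, Gzma, Gzmb and Nkg7 (T and natural killer cells). The myeloid-list genes Csf1r, Mrc1 and Cd68 were the exceptions, with up to 607, 602 and 507 reads in a library. The pan-leukocyte gene Ptprc had at most 14 reads. In contrast, all the B-cell, myeloid and T-cell markers looked for were read in every tissue group. Of 6 plasma-cell markers, 5 passed the low-count filter between genotypes in the crypts and 4 in the villi of both drivers. The 0 reads of Igha and Igkc in cultures are therefore not set against the tissue. Bulk tissue cannot tell fewer cells of a type from less RNA per cell, here or in any comparison that follows. The cultures differ from the tissue in handling, and the fetal spheroids in age, as well as in the cells they hold, and these cannot be told apart.

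Scaled by gene length, 7 of the 8 genes kept the same order in the villi of both heterozygous groups, and Ubd changed its place. Cd74 led at 3400.1 ± 887 CPM per kb (SD, n = 5) in Rosa26(CreER) and 2235 ± 581 (n = 4) in Vil1(CreER) villi. H2-Ab1 came next at 1473 ± 413 and 954 ± 244 CPM per kb. H2-Aa, its partner chain, stood at 1006 ± 293 and 734 ± 129.6, and H2-Eb1, the β chain of I-E, at 820.3 ± 199 and 593 ± 97.8. These 3 chains overlapped between libraries in CPM per kb. Within a library they kept a narrower ratio: H2-Aa over H2-Ab1 was 0.680 ± 0.0480 and 0.782 ± 0.0982. H2-DMb1 (120.3 ± 26.4 and 119 ± 21.3 CPM per kb) and H2-DMa (94.7 ± 24.7 and 57.9 ± 9.16), the peptide exchanger, lay well under the classical chains, of which H2-Eb1 was the nearest. Ubd lay below H2-DMb1 and level with H2-DMa in Rosa26(CreER) villi and above both in Vil1(CreER) villi, at 93.7 ± 55 against 281 ± 179 CPM per kb, with ranges that overlap between the drivers. Ciita was lowest, at 6.76 ± 2.30 and 10.6 ± 1.87 CPM per kb.

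Villi held more of the class II chains, their chaperone and Ubd than crypts of the same heterozygous animals. In Rosa26(CreER) mice 7 of the 8 genes were higher in villi (edgeR quasi-likelihood test, Benjamini-Hochberg adjusted p under 0.05), against 36.4% of all genes tested. In Vil1(CreER) mice 8 of 8 were higher, against 32.7%. These counts, and the villus-to-crypt differences that follow, come from fits with no block unless one is named. With the animal as a block, every member had an edgeR adjusted p under 0.05 in Rosa26(CreER) mice. In Vil1(CreER) mice every member but Ciita did. Over all genes the block fits called 11230 and 10483 in either direction. H2-Aa then differed by 2.76 ± 0.14 and 1.99 ± 0.20 (log2, SE). The median log2 difference of the 8 genes was 2.01 and 1.72, where the median over all genes tested was -0.09 and -0.08.

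Among the classical chains, H2-Aa stood at 363, 149, 249.6, 397 and 314 CPM in the 5 Rosa26(CreER) crypts and at 1765, 1042, 1932, 2510.5 and 2179.7 CPM in the villi. In Vil1(CreER) mice it stood at 320.0, 429, 311 and 346 CPM in crypts and 1326, 1052, 1539 and 1584 CPM in villi. Replicate 2 was the lowest Rosa26(CreER) animal in both tissues, and no villus library came within the range of the crypts. The log2 difference was 2.75 ± 0.30 (SE; adjusted p = 3.84e-06) and 1.98 ± 0.19 (adjusted p = 5.33e-06). H2-Ab1 rose in Rosa26(CreER) mice, with 183 to 509.5 CPM in crypts and 1497 to 3278 CPM in villi, a log2 difference of 2.69 ± 0.29 (adjusted p = 3.36e-06), and in Vil1(CreER) mice by 2.24 ± 0.20 (adjusted p = 3.25e-06). For H2-Eb1 the difference was smaller, at 1.95 ± 0.26 (adjusted p = 2.49e-05) and 1.56 ± 0.17 (adjusted p = 1.37e-05), again with no overlap between the tissues.

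The unequal rise changed the proportions of the chains. Per kb, H2-Eb1 over H2-Ab1 was 0.940 ± 0.0295 in crypts and 0.562 ± 0.0263 in villi of Rosa26(CreER) mice, and 0.996 ± 0.105 and 0.632 ± 0.0608 in Vil1(CreER) mice. Crypt libraries thus carried nearly equal amounts of the I-E and I-A β chains, and villus libraries carried more of I-A.

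Cd74 stood at 1491, 668, 1076, 1454 and 1439.5 CPM in Rosa26(CreER) crypts and 4396, 3340.4, 4185, 6565 and 5483 CPM in villi. In Vil1(CreER) mice it stood at 959, 1118, 902 and 1059 CPM in crypts and 2965, 2409, 2909.8 and 4321 in villi. It was higher in the villi of every animal, 2.95 to 5.00-fold and 2.15 to 4.08-fold, with log2 differences of 2.04 ± 0.25 (adjusted p = 1.06e-05) and 1.66 ± 0.21 (adjusted p = 4.1e-05). Its rise was less than that of H2-Ab1, so Cd74 over H2-Ab1 per kb went from 3.71 ± 0.383 to 2.33 ± 0.177 and from 3.51 ± 0.279 to 2.35 ± 0.229.

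The DM chains, which load peptide, were also higher in villi. H2-DMa differed by 1.55 ± 0.24 (adjusted p = 0.000102) and 1.04 ± 0.12 (adjusted p = 2.53e-05) on the log2 scale, and H2-DMb1 by 1.99 ± 0.25 (adjusted p = 1.31e-05) and 1.78 ± 0.13 (adjusted p = 1.09e-06). The β chain rose more than the α chain: H2-DMb1 over H2-DMa per kb went from 0.934 ± 0.0461 in crypts to 1.28 ± 0.112 in villi of Rosa26(CreER) mice, and from 1.23 ± 0.0752 to 2.05 ± 0.140 in Vil1(CreER) mice. The ranges of this ratio did not overlap between the tissues of either driver.

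Ciita, the regulator, showed a smaller difference than the chains, and its call depended on the fit. It stood at 47, 14.8, 34.2, 50.3 and 53.7 CPM in Rosa26(CreER) crypts and 87, 38.1, 48.2, 63.6 and 85.6 in villi, and at 66.3, 98, 62.9 and 51.5 CPM in Vil1(CreER) crypts and 103, 80.8, 97.7 and 124 in villi. Crypts and villi overlapped in both drivers. The log2 difference was 0.76 ± 0.33 (adjusted p = 0.0569) and 0.55 ± 0.22 (adjusted p = 0.0482). With the animal as a block the values were 0.81 (adjusted p = 0.000633) and 0.59 (adjusted p = 0.0771), so both calls change with the fit. The Vil1(CreER) call held in 2 of the 8 fits that left out 1 library, with adjusted p from 0.00124 to 0.115. Within animals Ciita was higher in the villi of 5 of 5 Rosa26(CreER) and 3 of 4 Vil1(CreER) mice, 1.26 to 2.57-fold and 0.824 to 2.41-fold. Per kb, Ciita over H2-Ab1 went from 0.0171 ± 0.00263 to 0.00469 ± 0.00146 and from 0.0361 ± 0.0102 to 0.0113 ± 0.00153.

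Ubd had the widest difference and the widest spread. Its levels were 9.20, 3.86, 3.52, 15.1 and 5.61 CPM in Rosa26(CreER) crypts and 163, 23.5, 99.7, 65.9 and 83.8 in villi. In Vil1(CreER) mice they were 16.6, 2.64, 15 and 9.74 CPM in crypts and 309, 45.1, 445 and 247 in villi. Villi lay above crypts in every animal, 4.38 to 28.3-fold and 17.1 to 29.7-fold, and Vil1(CreER) replicate 2 was the lowest animal in both tissues. The log2 difference was 3.63 ± 0.55 (adjusted p = 8.09e-05) and 4.61 ± 0.85 (adjusted p = 0.00186).

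**Figure D2:**
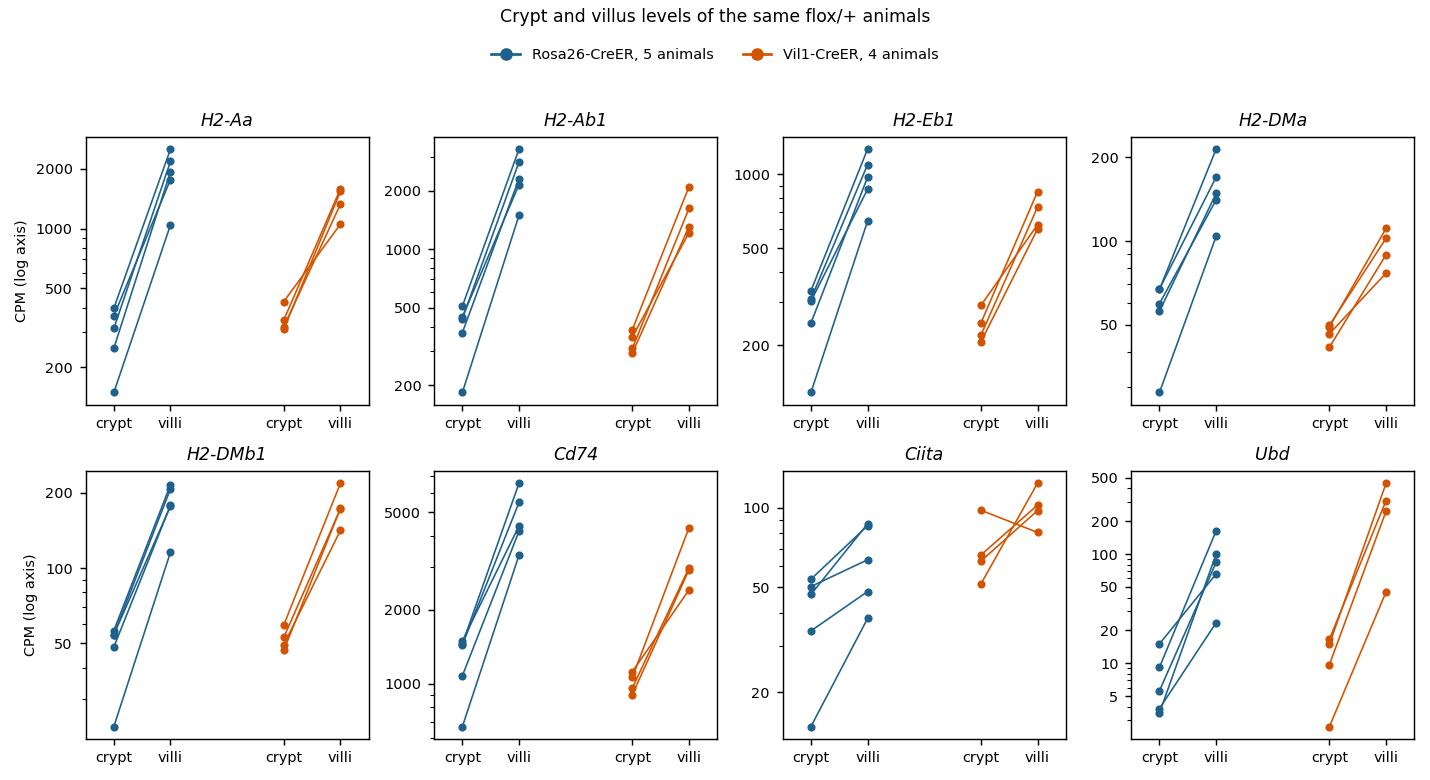
Crypt and villus levels (CPM, log axis) of the 8 genes in heterozygous mice, with a line joining the 2 tissues of 1 animal; 5 Rosa26(CreER) and 4 Vil1(CreER) animals. The lines of 7 genes rise in every animal, and that of Ciita falls in Vil1(CreER) replicate 2, from 98 to 80.8 CPM.

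The other genes of the class II pathway moved in both directions. Of the 15 tested, 6 were higher and 7 lower in Rosa26(CreER) villi, and 5 and 5 in Vil1(CreER) villi (medians -0.26 and -0.46). Of all 14793 genes tested, 5388 were higher and 6012 lower in Rosa26(CreER) villi. In Vil1(CreER) villi 5149 were higher and 5553 lower of 15757. The same shares apply to the villus-to-crypt counts of the lists that follow. The lysosomal proteases that process the invariant chain and antigen rose: Ctss by 2.27 ± 0.16 and 1.92 ± 0.16, Ctsl by 1.67 ± 0.33 and 1.43 ± 0.13 on the log2 scale. Rfxank, a subunit of the complex that binds the X box, rose by 1.82 ± 0.08 and 1.27 ± 0.10. H2-Ob, a chain of the DO heterodimer that restrains DM and is typical of B cells, fell by 2.69 ± 0.91 in Rosa26(CreER) and 4.07 ± 1.49 in Vil1(CreER) villi. H2-Oa, H2-Eb2 and H2-DMb2 fell in Rosa26(CreER) villi (log2 -1.88 ± 0.68, -2.60 ± 0.69 and -1.94 ± 0.68), and in Vil1(CreER) villi their log2 differences of -3.31 ± 1.33, -3.07 ± 1.26 and -3.51 ± 1.36 did not pass the test.

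Markers of immune cells moved in both directions between the tissues. All 8 B-cell markers fell in Rosa26(CreER) villi (median log2 -2.33), and in Vil1(CreER) villi edgeR called 0 of 8, with 6 at an unadjusted p under 0.05 (median -3.84). Their summed level was 9.69 to 123 CPM in Rosa26(CreER) crypts and 2.91 to 34.1 in villi, and 3.49 to 798 and 2.11 to 45 CPM in Vil1(CreER) mice. Part of the list of T and intraepithelial lymphocytes was higher in villi: 4 of 14 markers were higher (Gzma, Cd8a, Cd3g and Trdc, named after their values were seen) and 1, Cd2, lower in Rosa26(CreER) villi (summed level 149 to 893 CPM in crypts, 515 to 1335 in villi), and 10 of 14 were higher in Vil1(CreER) villi (209 to 648 against 685 to 1371). Of the myeloid list, 1 rose and 1 fell among 13 tested, and 2 rose and 1 fell among 12. None of these 3 lists had a marker at 0 in a whole tissue group. The part of these cells in the villus levels of the class II genes was not tested.

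Class I presentation and interferon-γ genes rose beside the class II genes. Of 18 class I genes, 15 were higher and 0 lower in Rosa26(CreER) villi, and 15 higher and 1 lower in Vil1(CreER) villi. Their medians of 2.03 and 1.55 were near those of the 8 members. The largest rises were those of H2-Q1 (4.65 ± 0.19 and 3.86 ± 0.34) and H2-Q2 (4.07 ± 0.15 and 3.61 ± 0.28), and B2m, the light chain, rose by 2.78 ± 0.15 and 2.57 ± 0.24. Of the interferon-γ list, 16 rose and 7 fell among 27, and 17 rose and 1 fell among 28. Ido1, a tryptophan-degrading enzyme, rose most, by 4.05 ± 0.37 and 5.74 ± 0.47, while Tgtp1, a GTPase of the same response, fell by 2.33 ± 0.42 and 1.62 ± 0.65.

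In the homozygous villi of both drivers the fitted level of each of the 8 genes lay under that of the heterozygous villi. These values chose the genes, so their direction and the counts that follow are no test of them. In Rosa26(CreER) villi 7 of 8 had an adjusted p under 0.05 and were lower, where 18.2% of all genes tested were lower. In Vil1(CreER) villi 5 of 8 were lower (21.6% of all genes tested), a count that ran from 1 (without heterozygous replicate 4 or homozygous replicate 4) to 8 (without homozygous replicate 6) when 1 library was left out. In a fit that adjusted for whether a library held Y-linked transcripts, chosen after seeing the data, 2 of 8 passed in the villi of each driver, H2-Ab1 and H2-Eb1 in Rosa26(CreER) and H2-Ab1 and Ubd in Vil1(CreER) mice. Over all genes, 2967 and 6420 passed in those fits in either direction, against 4504 and 6422 without the adjustment. In Vil1(CreER) crypts 6 of 8 were lower (17.7%), and 0 of 8 when all 4 groups of the driver were fitted together. That joint fit called 3442 of all genes in either direction, against 4960 in the main fit. In Rosa26(CreER) crypts 0 of 8 passed by edgeR's quasi-likelihood test (20.2% of all genes in either direction). There 1 had an unadjusted p under 0.05, and DESeq2 called 1, Ubd in both cases. Over all genes DESeq2 called 4372 in these crypts.

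H2-Aa stood at 872, 509, 371, 529 and 158 CPM in homozygous Rosa26(CreER) villi, all under the lowest heterozygous value of 1042 CPM. Its log2 difference was -2.03 ± 0.40. In the 6 homozygous Vil1(CreER) villi the lowest, median and highest values were 13.6, 207 and 541 CPM, against 1052 to 1584 in the heterozygous ones, a log2 difference of -2.62 ± 0.87. In both drivers the groups did not overlap. H2-Ab1 differed by -1.77 ± 0.32 and -2.40 ± 0.74, and H2-Eb1 by -1.73 ± 0.24 and -2.05 ± 0.70.

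Cd74 was at 3114, 2601, 1839, 2112 and 772 CPM in homozygous Rosa26(CreER) villi, a difference of -1.28 ± 0.32. In homozygous Vil1(CreER) villi it was at 47.1, 699.6 and 1363 CPM (lowest, median and highest), a difference of -2.31 ± 0.82. Replicates 2 and 3 of the latter carried 47.1 and 68.2 CPM, an order of magnitude under the other 4. Replicate 2 of these had 619.7 CPM of Cd74 in its crypts, the highest homozygous Vil1(CreER) crypt value, so its low villus level was not shared by its crypts. H2-DMa and H2-DMb1 were lowest in the same libraries, with differences of -1.33 ± 0.28 and -1.32 ± 0.31 in Rosa26(CreER) villi and -1.54 ± 0.58 and -1.89 ± 0.77 in Vil1(CreER) villi.

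Ciita was at 43.5, 31.7, 30.6, 19.3 and 10.2 CPM in homozygous Rosa26(CreER) villi, a difference of -1.33 ± 0.37, and at 4.53, 29.6 and 69.3 CPM (lowest, median and highest) in homozygous Vil1(CreER) villi, a difference of -1.72 ± 0.67. Within homozygous animals Ciita was higher in villi than in crypts in 1 of 4 Rosa26(CreER) mice (0.383 to 1.32-fold) and in 0 of 3 Vil1(CreER) mice (0.0790 to 0.587-fold). Ubd was at 15.4, 52.2, 52.8, 2.82 and 0.260 CPM in homozygous Rosa26(CreER) villi, overlapping the heterozygous range of 23.5 to 163, with a difference of -1.92 ± 1.01. In homozygous Vil1(CreER) villi it was at 0.0769, 4.55 and 13.1 CPM (lowest, median and highest), all under the lowest heterozygous value of 45.1, a difference of -5.56 ± 1.05. Without the lowest 2 homozygous Vil1(CreER) villi, a setting chosen after seeing the data, the differences were -2.07 for H2-Aa, -1.76 for Cd74, -1.22 for Ciita and -4.99 for Ubd.

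Differences in the crypts varied by gene and driver. In Rosa26(CreER) crypts the 7 genes other than Ubd differed by -0.95 (H2-DMb1) to 0.21 (Ciita), and homozygous replicate 5 was the lowest library of all 9 for each of the 8. Without it the differences of H2-Aa and H2-Eb1 changed sign, to 0.13 and 0.21. In Vil1(CreER) crypts H2-Aa differed by -0.63 ± 0.14, Cd74 by -0.86 ± 0.14 and H2-DMb1 by -1.33 ± 0.14. Ubd was low in the homozygous crypts of both drivers, at 1.32, 1.82, 0.126 and 0.0189 CPM and 0.788, 0 and 1.56 CPM, with differences of -3.10 ± 1.03 and -3.79 ± 1.23. The tissue lists moved in the same crypts. Of all 15846 genes tested in Rosa26(CreER) crypts, 1367 rose and 1831 fell. Of 16954 in Vil1(CreER) crypts, 1964 rose and 2996 fell. Of the crypt list, 7 of 7 genes fell in Rosa26(CreER) crypts (summed level 13940.2 to 18651 CPM in heterozygous and 1453 to 6426 CPM in homozygous samples) and 6 of 7 in Vil1(CreER) crypts (7748 to 10465 and 834 to 1579 CPM). Of 9 villus genes, such as Alpi and Fabp1, edgeR called 0 in Rosa26(CreER) crypts, with 2 at an unadjusted p under 0.05 (1387 to 2332 and 1594 to 4694 CPM), and 3 fell in Vil1(CreER) crypts (1054 to 2678 and 433 to 1066 CPM; median log2 -1.02). The part of these lists in the class II differences was not tested.

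**Figure D3:**
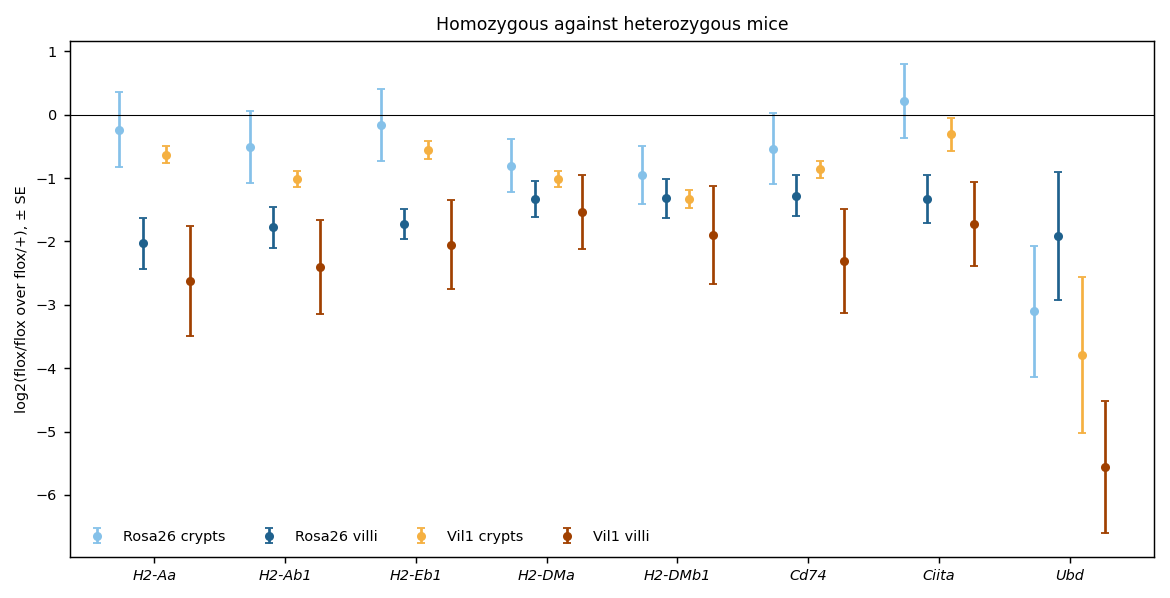
Log2 difference (homozygous over heterozygous, with SE) of the 8 genes in crypts and villi of both drivers. The class II genes in the villi lie at -1.28 or below, and Ciita in the Rosa26(CreER) crypts at 0.21.

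Lymphocyte markers fell with the class II genes in the homozygous villi. Of all 13579 genes tested in Rosa26(CreER) villi, 2031 rose and 2473 fell. Of 15107 in Vil1(CreER) villi, 3155 rose and 3267 fell. These shares, with those given for the crypts, apply to the counts of this paragraph and the next. Of the T and intraepithelial lymphocyte list, 12 of 13 tested fell in Rosa26(CreER) villi, with a summed level of 515 to 1335 CPM in heterozygous and 209.8 to 369 CPM in homozygous samples. In Vil1(CreER) villi 13 of 14 fell, with 685 to 1371 CPM in heterozygous and 110.04 to 423 CPM in homozygous samples. In the crypts edgeR called 0 of 14 with either driver (1 and 0 at an unadjusted p under 0.05). Of the B-cell markers 0 were called in any of the 4 comparisons, with 7 of 8 at an unadjusted p under 0.05 in Rosa26(CreER) crypts, where their summed level was 9.69 to 123 CPM in heterozygous and 29.5 to 524 CPM in homozygous samples, and 0 in the others (summed level 2.11 to 45 CPM in heterozygous and 3.00 to 60.8 CPM in homozygous Vil1(CreER) villi). In Rosa26(CreER) crypts edgeR called 1 of 14 myeloid markers, which was higher, with 12 at an unadjusted p under 0.05 (median log2 2.02; summed level 31.4 to 241 CPM in heterozygous and 47.3 to 1852 CPM in homozygous samples). In Vil1(CreER) crypts, 8 of 15 myeloid markers rose and 1 fell (summed level 22.6 to 39.4 CPM in heterozygous and 54 to 86.7 CPM in homozygous crypts), where the class II genes were lower. Of 5 plasma-cell markers 1 rose in Vil1(CreER) crypts (summed level 43 to 339.6 CPM in heterozygous and 542 to 588 CPM in homozygous samples, which did not overlap). No marker of the lymphocyte, B-cell and myeloid lists was at 0 in a whole tissue group, and the part of lymphocytes, plasma cells and myeloid cells in the class II differences was not tested.

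The other presentation genes did not all follow. Of 18 class I genes, 2 fell in Rosa26(CreER) villi, 12 in Vil1(CreER) villi, 1 in Rosa26(CreER) crypts and 11 in Vil1(CreER) crypts, and 0 rose in any. The class I counts of the Rosa26(CreER) tissues lay under the shares of all genes that fell there. B2m fell by 0.87 ± 0.22 in Vil1(CreER) villi. Of the interferon-γ list, 4 rose and 4 fell among 26 in Rosa26(CreER) villi, while 1 rose and 11 fell among 27 in Vil1(CreER) villi. The Rosa26(CreER) counts of this list were near the shares of all genes. Of the other class II pathway genes, 0 rose and 4 fell among 14, and 1 rose and 3 fell among 15. With so few genes, nothing is read from these last counts.

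Within the tissue groups the class II genes rose and fell together from library to library. The likeness of genes was measured as Pearson's r over the 36 tissue libraries between log2(CPM + 0.5) values, each with its group's mean removed. The 36 libraries share animals between crypts and villi, and a few low libraries weigh on every r, so it is given again without the 2 libraries farthest from the median. Against the mean of H2-Aa, H2-Ab1, H2-Eb1 and Cd74, r was 0.980 for H2-DMa, 0.971 for H2-DMb1 and 0.947 for Ciita (0.978, 0.969 and 0.918 without the 2). Ubd stood apart at 0.614 (0.558 without the 2).

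Among 9991 other genes whose log2 CPM averaged 2 or more, those most like the class II mean were Zbp1 (r = 0.841), a sensor of Z-form nucleic acid, Sp100 (0.841), a nuclear body protein, the transcription factor Irf8 (0.828), Gcnt1 (0.813), a glycosyltransferase, and Nlrc5 (0.808), the class I counterpart of Ciita. Samhd1, H2-Q6, H2-Q5, Ifi47 and Sp110 completed the closest 10, at 0.769 to 0.785. Those most like Ubd were Ifi47 (r = 0.908), Zbp1 (0.894), Irgm1 (0.875) and Igtp (0.873), of which Ifi47, Irgm1 and Igtp are interferon-inducible GTPases, then Spats2l, Nudt5, Ifi44, Irgm2, Gbp7 and Irf8 at 0.842 to 0.872. Zbp1, Irf8 and Ifi47 were in both sets of 10. Without the 2 farthest libraries, r of Zbp1 was 0.793 with the class II mean and 0.846 with Ubd.

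Among the 5 lists of interferon-γ, class I, lymphocyte, B-cell and myeloid genes, the order of likeness was the same for the class II mean and for Ubd. The plasma-cell list broke that order. Its median over 3 genes was 0.260 with the class II mean, under the myeloid median, and 0.0580 with Ubd, above the myeloid median. The median r with the class II mean was 0.649 over 20 interferon-γ genes, 0.590 over 18 class I genes, 0.543 over 11 lymphocyte markers, 0.367 over 6 B-cell markers and 0.311 over 7 myeloid markers. It was -0.0784 over 9 villus genes, -0.0383 over 9 epithelial genes and -0.0721 over 13 other class II pathway genes. With Ubd the medians were 0.661, 0.547, 0.433, 0.171 and -0.0944 for the first 5 lists. They were 0.0318 over the villus genes, 0.0880 over the epithelial genes, 0.167 over the crypt list and -0.00246 over the other class II pathway genes. All of these lay above the myeloid median with Ubd and below it with the class II mean (crypt list -0.0565), so the shared order does not extend to them. For both the class II mean and Ubd, the interferon-γ genes had the highest median and the class I genes the next.

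**Figure D4:**
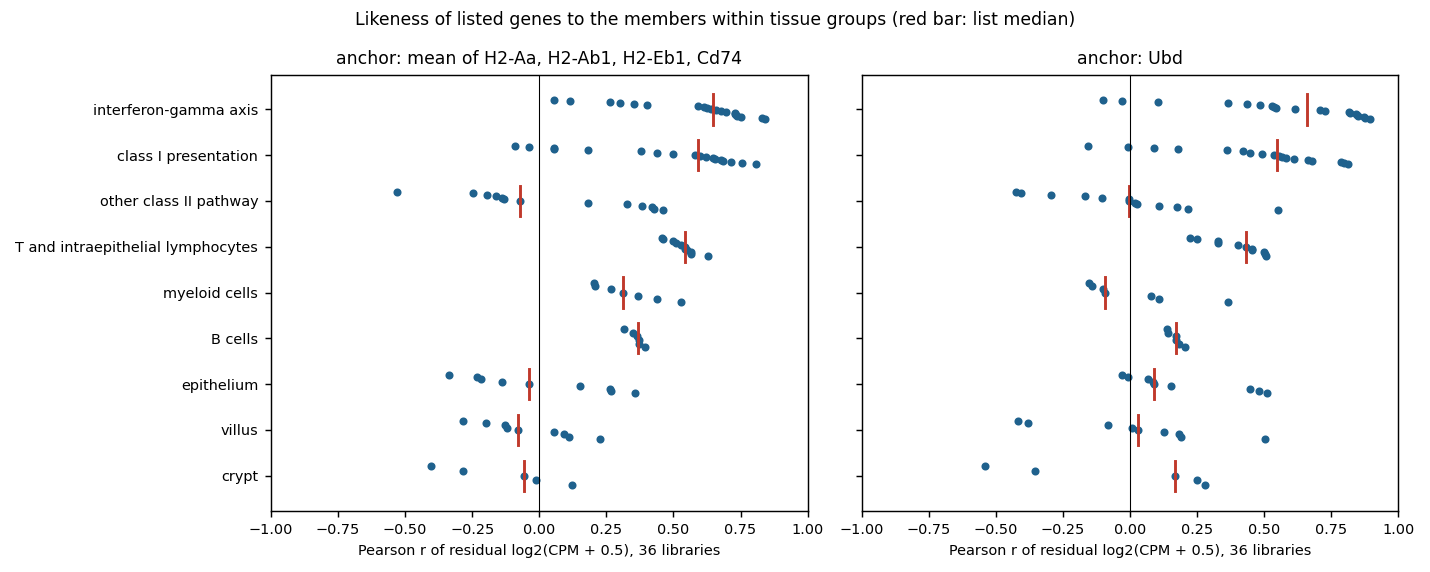
Pearson's r over 36 tissue libraries (group means removed) of the genes of 9 lists, with the class II mean in the left panel and with Ubd in the right; points are genes and red bars list medians. The interferon-γ genes have the highest median in both panels, 0.649 and 0.661.

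In organoids and spheroids, of the members past the low-count filter, none passed edgeR's threshold between deleted and control cultures when all libraries were fitted with no block. Most were too low to test: of the 8 genes, 2 passed the low-count filter in each organoid set and 4 in the spheroids. In the first organoid set 0 of 2 passed the edgeR threshold and 0 had an unadjusted p under 0.05 (35.4% of all genes passed in either direction). Without 4-OHT replicate 3, 2 of 4 tested members were higher with 4-OHT, H2-Eb1 and H2-DMb1. Over all genes, the fits without 1 library called 3672 to 6770 in either direction, against 5422 with all libraries. H2-Eb1 had 8, 17 and 4 reads with DMSO and 35, 36 and 9 with 4-OHT, a log2 difference of 1.31 ± 0.64 (adjusted p = 0.152). With the line as a block, which pairs these samples, the difference was 1.36 ± 0.39 (adjusted p = 0.0296). H2-DMa had 59, 51 and 44 and 62, 71 and 56 reads and differed by 0.13 ± 0.22 (adjusted p = 0.699).

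Ubd and Cd74, below the filter, were counted in few reads. Ubd had 10, 12 and 7 reads with DMSO and 3, 0 and 3 with 4-OHT in the first set. All DMSO libraries lay above all 4-OHT libraries. With no filter the log2 difference was -2.36 (adjusted p = 0.0338), and DESeq2 gave -2.48 (adjusted p = 0.0434). In the second set Cd74 had 0, 2, 1 and 0 reads in flox/flox, 5, 2, 8 and 24 in flox/+ and 8, 1, 12 and 3 in +/+ organoids. With no filter flox/flox differed from flox/+ by -3.17 (adjusted p = 0.00851) and from +/+ by -2.58 (adjusted p = 0.0445), and DESeq2 called only the former (adjusted p = 0.0155). No culture library had more than 24 reads of either gene.

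In the second organoid set 0 of 2 members (H2-Ab1 and H2-DMa) passed in any of the 3 genotype comparisons by edgeR, none had an unadjusted p under 0.05, and 46.8%, 45.3% and 0.113% of all genes passed for flox/flox against flox/+, flox/flox against +/+, and flox/+ against +/+. H2-DMa differed between flox/flox and flox/+ by -0.26 ± 0.27 (adjusted p = 0.466). In fetal spheroids 0 of 4 members passed in the 4 comparisons by edgeR or DESeq2, where 19.1% of all genes passed with 4-OHT in flox/flox, 0% with 4-OHT in flox/+, 10.5% between genotypes with 4-OHT and 0% between genotypes with DMSO. Ubd had an unadjusted p under 0.05 between genotypes in both of the latter. H2-Ab1 was at 0, 0.175 and 3.46 CPM (lowest, median and highest) in flox/flox spheroids with DMSO and at 0, 1.37 and 6.19 with 4-OHT. The log2 difference was 1.08 ± 1.01 (edgeR adjusted p = 0.512) in the fit with no block. A fit with the line as a block, which pairs these samples, gave 1.6016 ± 0.5883 (edgeR adjusted p = 0.06577). Lines 1 and 3 held most of the H2-Ab1 reads under both treatments, 56 and 65 with DMSO and 93 and 85 with 4-OHT.

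At 10 µM A-485 both DM chains were higher than with DMSO in organoids, while the classical chains had few reads at any dose. H2-DMb1 had 0, 0.555, 0 and 0 CPM with DMSO, 1.30, 0.983, 0.938 and 0 at 3 µM, 2.81, 3.06, 4.06 and 2.05 at 5 µM and 8.89, 8.97, 9.39 and 6.71 at 10 µM. Only replicate 2 of the DMSO group had any reads, 7 in all, and each library at 5 and 10 µM lay above every DMSO library. The 3 doses share the 4 DMSO libraries. H2-DMb1 could pass the low-count filter only through the groups where it was high. Its log2 differences from DMSO are therefore given as a description, with no p-value. They were 2.49 ± 0.97 (SE) at 3 µM, 4.34 ± 0.92 at 5 µM and 5.84 ± 0.93 at 10 µM. Leaving out any library but DMSO replicate 2 gave 5.44 to 5.93 at 10 µM. Without that replicate all remaining DMSO libraries were at 0, and the fitted value of 9.75 then depends on the prior count added by the fit.

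H2-DMa had 1.31, 2.38, 2.19 and 2.87 CPM with DMSO, 3.68, 4.59, 2.56 and 0 at 3 µM, 4.15, 4.59, 3.84 and 10.3 at 5 µM and 7.01, 6.12, 6.13 and 9.42 at 10 µM. The 5 and 10 µM libraries all lay above the DMSO range, and the 3 µM libraries overlapped it. The log2 differences were 0.32 ± 0.64 (edgeR adjusted p = 0.778), 1.39 ± 0.63 (adjusted p = 0.0779) and 1.71 ± 0.64 (adjusted p = 0.0263). With the line as a block, which pairs these samples, they were 1.34 at 5 µM (adjusted p = 0.0106) and 1.74 ± 0.35 at 10 µM (adjusted p = 0.00105). In the fit with no block the call at 10 µM was lost without DMSO replicate 1 (0.0711), DMSO replicate 3 (0.0541) or 10 µM replicate 4 (0.0605). H2-DMb1 could pass the low-count filter only through the groups where it was high, so the counts that follow are a description. At 3 µM 0 of 2 tested members passed (19.2% of all genes in either direction; 1 at an unadjusted p under 0.05; DESeq2 called 1), 1 was higher at 5 µM (24.4% of all genes were higher) and 2 at 10 µM (29.4%).

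The classical chains were below the low-count filter. H2-Aa had 0 reads in all 16 libraries, and H2-Eb1 had 2, 0, 2 and 12 reads with DMSO and 8, 0, 4 and 0 at 10 µM. H2-Ab1 had 11, 1, 8 and 10 reads with DMSO and 0, 0, 0 and 0 at 10 µM, and was lower there in the fit with no filter (adjusted p = 0.00672) and by DESeq2 (log2 -5.38, adjusted p = 0.00149). Ciita had 0 to 5 reads in all 16 libraries. H2-DMb2, the close copy of H2-DMb1, had 0 reads in all 56 culture libraries.

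**Figure D5:**
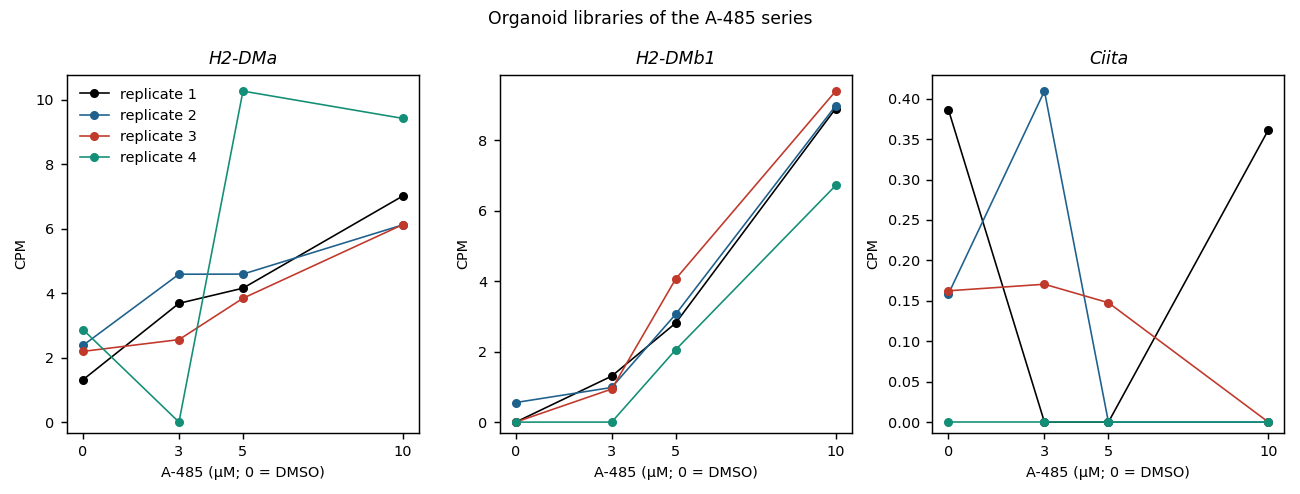
H2-DMa, H2-DMb1 and Ciita levels (CPM) by A-485 dose (µM, 0 being DMSO), 4 libraries a dose; each point is a library and lines join libraries of the same replicate. H2-DMb1 lies at 0 to 0.555 CPM with DMSO and at 6.71 to 9.39 CPM at 10 µM, and 3 µM replicate 4 is at 0 for both DM chains.

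Other interferon-γ and presentation genes moved in both directions at 10 µM. Of 19 interferon-γ genes tested, 11 rose and 3 fell, where 4032 rose and 4480 fell of all 13724 genes tested. Genes with no reads in a whole group, such as Gbp2 and Nos2, could pass the low-count filter only through groups where they had reads. The counts of this list, at each dose, are therefore a description. Gbp2, a GTPase, had 0 reads in all DMSO libraries and 22.96 ± 22.59 CPM (SD, n = 4) at 10 µM. Irf8 fell from 72.1 ± 8.28 to 1.26 ± 0.868 CPM, and Nos2, the inducible nitric oxide synthase, from 5.63 ± 1.53 CPM to 0 reads. Of 17 class I genes, 9 rose and 4 fell: Tapbp, the peptide-loading tapasin, rose by 2.31 ± 0.22 and the immunoproteasome subunit Psmb8 by 2.40 ± 0.73, while H2-T3 and H2-Q1 fell by 5.36 ± 0.73 and 3.41 ± 0.47. Of 11 other class II pathway genes, 3 rose and 4 fell. Ctsl, which rose in the villi, rose here too, by 1.88 ± 0.18, and Ctss fell by 1.59 ± 0.22. Ifi30, a lysosomal thiol reductase, fell by 2.41 ± 0.17. The X-box subunits Rfx5 (0.38 ± 0.20), Rfxap (-0.48 ± 0.23) and Rfxank (-0.19 ± 0.25) did not pass. At 5 µM the interferon-γ list had 11 higher and 3 lower, and at 3 µM 4 higher and 3 lower, each against the same DMSO libraries. Of all genes tested, 3355 were higher and 3449 lower at 5 µM, and 1482 and 1155 at 3 µM. Lists of other cell states moved in the same cultures at 10 µM. Of the crypt list 7 of 7 genes fell (median log2 -4.86), of the villus list 8 of 9 fell (median -4.08; summed level 5106 to 10102 CPM with DMSO and 78.2 to 361 CPM at 10 µM), and of 4 fetal spheroid genes tested 3 rose (median 2.47). The part of these lists in the differences of the DM chains was not tested.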

How the data were processed

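RNA-seq of 92 samples was analysed: 36 of intestinal crypts and villi and 56 of organoids and fetal spheroids. The deposited values are raw read counts per gene in 4 tables, with poly(A) selection and a dUTP strand-marking library per the labels. HISAT2 2.0.5 and the build GRCm38 (mm10) are named in the submitters' processing notes; the counting program and annotation are not given in the sources used here. Library totals ran from 8652040 to 37611126 counts, so 3 counts correspond to 0.0927 to 0.347 CPM in cultures.

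Groups followed the labels, and 17 comparisons were fitted with edgeR 4.0.16 (R 4.3.3) on the whole table: filterByExpr, TMM scaling within a set, quasi-likelihood F-test with robust dispersions, Benjamini-Hochberg adjustment over all genes tested, threshold 0.05. The script was tested on simulated data. DESeq2 1.42.0, other size factors, no low-count filter, a replicate block, other group sets, a Y-linked covariate and leaving out each library were alternatives. CPM were computed from the counts after TMM; CPM per kb use the gene lengths of the tables. Likeness used log2(CPM + 0.5) of genes averaging 2 or more on the log2 CPM scale.

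The members and lists were chosen with earlier results of these data known. Named genes are the 8 members, the defining genes or the 2 largest called changes of each list, and the 10 genes most like each anchor. Samples of the same animal (heterozygous villi and crypts) or line (first organoid set, spheroids with and without 4-OHT, A-485) are paired by the library names; the correlation of their deviations was -0.00247 to 0.164 and 0.0481 to 0.296 for the animals of each driver, 0.318 to 0.501, 0.327 to 0.838 and 0.0460 to 0.269 for these lines.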

Additional observations from a re-analysis of the deposited data

Results flagged for a closer look

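The level of each gene was looked at for 71 pairs of a gene and a group of 4 to 10 samples with a mean of at least 1 CPM, and in 2 of them the highest or lowest sample lay farther from the rest than Dixon's 95% limit allows; chance alone flags about 1 in 20 groups. H2-DMa at 5 µM A-485 was 10.26 CPM in replicate 4, against 3.84 to 4.59 in the other 3 lines. H2-DMb1 in heterozygous Rosa26(CreER) crypts was 23.24 CPM in replicate 2, against 48.4 to 56.3 in the other 4 animals.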

How the results depend on the processing

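Of the alternatives to the 17 counts of called members, 70 stayed within 1.5 times the main count and 19 did not, and leaving out 1 library left 137 within it and 15 outside. DESeq2 called 1 member in Rosa26(CreER) crypts, 8 in Vil1(CreER) villi, 1 in the first organoid set, 1 between flox/flox and flox/+ organoids, and 1 and 3 at 3 and 5 µM A-485. Over all genes it called 4372, 7344, 5848, 6937, 3049 and 7139 in these comparisons, in that order, where the main fits called 3198, 6422, 5422, 6660, 2637 and 6804. With no low-count filter 1 was called in Vil1(CreER) villi, 1 in the first organoid set and 1 between flox/flox and each control of the second. Those fits called 6686, 5328, 6486 (against flox/+) and 6296 (against +/+) of all genes. With all 4 groups of a driver fitted together 0 were called in Vil1(CreER) crypts and 8 in the villi, where 3442 and 7734 of all genes were called. A Y-linked covariate, added after seeing the data, left 2 in the villi of each driver, and leaving out both lowest Vil1(CreER) homozygous villi gave 8. Over all genes the covariate fits called 2967 in Rosa26(CreER) and 6420 in Vil1(CreER) villi, and the fit without the 2 libraries called 5064. At 5 µM A-485 a fit of only these groups called 2 members and 7436 of all genes. Leaving out 1 library gave counts of 0 to 1 in Rosa26(CreER) crypts, 1 to 8 in Vil1(CreER) villi, 0 to 2 in the first organoid set, 0 to 1 at 3 µM and 1 to 2 at 10 µM. Over all genes these fits called 1937 to 4732, 5163 to 6675, 3672 to 6770, 1878 to 2747 and 7947 to 8346, in that order. In Vil1(CreER) villi the count was 8 without homozygous replicate 6 and 1 without heterozygous replicate 4. The cause of these changes was not tested.

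With the replicate number as a block 1 member was called after 4-OHT in organoid set 1 and 2 members at 5 µM A-485, where the number pairs lines, and 8 in Vil1(CreER) villi, where it pairs no animals. Over all genes these block fits called 6622, 7537 and 5739. The block turned the sign of Ciita in Rosa26(CreER) crypts (-0.35), of H2-Ab1 (-0.92) and H2-DMa (0.10) between spheroid genotypes with DMSO, and of H2-DMa at 3 µM (-0.0075). Without a shared origin, the correlation of same-numbered samples was 0.0366 to 0.599 in Rosa26(CreER) crypts, -0.164 to 0.254 in villi, -0.0340 to 0.191 and -0.103 to 0.115 in Vil1(CreER) crypts and villi, -0.163 to 0.144 in the second organoid set and -0.447 to 0.482 between spheroid genotypes.

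Leaving out 1 library turned the sign of these uncalled differences. In Rosa26(CreER) crypts H2-Aa ran from -0.67 to 0.13, H2-Eb1 from -0.59 to 0.21 and Ciita from -0.30 to 0.57. H2-DMa ran from -0.044 to 0.22 with 4-OHT in the first set of organoids, from -0.21 to 0.15 between flox/flox and +/+, and from -0.065 to 0.72 at 3 µM. H2-Ab1 ran from -0.80 to 0.18 between flox/flox and flox/+, from -0.23 to 0.63 between flox/flox and +/+, and from -0.021 to 1.09 between flox/+ and +/+. In spheroids H2-Eb1 ran from -0.26 to 0.85 with 4-OHT in flox/flox, Ubd from -0.046 to 0.50 with 4-OHT in flox/+, H2-DMa from -0.034 to 0.44 and from -0.35 to 0.34 between genotypes with 4-OHT and with DMSO, and H2-Ab1 from -0.61 to 0.48 with DMSO.

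Over all genes, the 16 called between flox/+ and +/+ organoids became 146 with DESeq2, 39 with no filter, 30 with the block and 1 to 32 without 1 library. The 1577 between spheroid genotypes with 4-OHT became 880 with only these groups and 140 with the block, the 2864 with 4-OHT in flox/flox became 4649 with the block, and the 4504 in Rosa26(CreER) villi became 2967 with the Y-linked covariate. Leaving out 1 library gave 1937 to 4732 for the 3198 in Rosa26(CreER) crypts and 3223 to 5978 for the 4960 in Vil1(CreER) crypts. Between spheroid genotypes with DMSO DESeq2 called 2 where edgeR called 0, and with 4-OHT in flox/+ the block called 1 where 0 had been. A member with no read in a culture library may lie at up to 0.0927 to 0.347 CPM at these depths.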
